A study of Mus musculus with 9 samples.

Results

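The genes described here are 8 transcription factors: Tlx1, Nkx2-3, Nkx2-5, Nkx3-2, Tcf21, Wt1, Meis1 and Nr2f2. They were taken by gene name from a table of 27370 mouse genes, and all 8 were found and passed the filter on low counts that left 15103 genes to test. Most of them pattern the embryonic spleen, and their levels were followed here in the adult stroma of spleen and lymph node.

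The spleen arises from a sheet of mesoderm beside the embryonic stomach. In mice, loss of Tlx1, of Nkx3-2, of Tcf21 or of Wt1 leaves the animal without a spleen or with a rudiment, while Nkx2-3 is needed for the ordered structure of red and white pulp. Nkx2-5 is an early marker of the spleen primordium, Meis1 is a homeobox partner of Hox proteins, and Nr2f2 (COUP-TFII) is a nuclear receptor widely made in mesenchyme and in venous endothelium.

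Polyadenylated RNA was sequenced from 9 libraries in 3 groups of 3. The first group holds tdTomato+ red pulp fibroblasts (RPF) of spleens from diphtheria toxin-treated mice, called depleted RPF below. The second holds tdTomato+ RPF of spleens from untreated mice, called steady-state RPF, and the third holds tdTomato- fibroblastic reticular cells (FRC), which form the stromal network of lymph nodes, from untreated mice. Every mouse was 4 months old and carried Wt1CreERT2, RosatdTomato and CD64DTR, so the controls carry the toxin receptor and the Cre allele too. CD64DTR puts the diphtheria toxin receptor in cells that express CD64, a macrophage marker, and Wt1CreERT2 with RosatdTomato labels cells in which the Wt1 promoter was active when Cre was switched on. The sources used here do not give the timing of the toxin or how Cre was switched on. Cells were depleted of CD45+ cells, stained for CD45, gp38, CD31 and VCAM1 and sorted, with 45000 cells from 6 mice per group. Each library pooled 2 mice. With 12 mice in all and 6 of them treated, steady-state RPF and FRC came from the same 6 untreated mice, and the sources used here do not say which of these libraries share animals.

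Total counts ran from 25414645 to 43879806 per library. Levels are TMM-normalised CPM, read counts scaled to a common library size. A gene counts as called where edgeR's two-sided quasi-likelihood test, adjusted by Benjamini-Hochberg over all 15103 genes, gave a p under 0.05. Steady-state RPF replicate 1 and FRC replicate 1 held only 24 and 69 counts on Y-linked genes, with Xist at 190 and 215 CPM, against 2315 to 6124 Y-linked counts in the other 7 libraries, the depleted ones included. The libraries held fibroblast RNA, with summed levels of 7 fibroblast genes of 4627 to 5303 CPM in depleted RPF, 5262 to 5956 CPM in steady-state RPF and 52636 to 56443 CPM in FRC. Dcn and Lum, matrix proteoglycans often used to mark fibroblasts, were at means of only 12.3 and 6.63 CPM in depleted RPF and 30.6 and 7.94 CPM in steady-state RPF, against 26902 and 5418 CPM in FRC. Pdgfrb, a growth factor receptor of fibroblasts and mural cells, had the opposite order, at means of 2331 CPM in depleted RPF, 942 CPM in steady-state RPF and 515 CPM in FRC, and was called higher in depleted than in steady-state RPF (edgeR adjusted p = 4.89e-05). Pdpn, which encodes the gp38 antigen, was near 0 in both RPF groups (means of 0.0733 CPM in depleted and 0.0981 CPM in steady-state RPF) and at 74.1 CPM in FRC. Vcam1 was at means of 1035, 1590 and 2983 CPM in depleted RPF, steady-state RPF and FRC, and was called lower in depleted than in steady-state RPF (edgeR adjusted p = 0.0364). Ptprc, which encodes CD45, was at 0.258, 0 and 0 CPM in depleted RPF and 11.3, 7.21 and 0.198 CPM in steady-state RPF. In FRC it was at 7.44, 0.307 and 0 CPM. Markers of red pulp macrophages summed to 3.77 to 17.9 CPM in depleted RPF, 227 to 253 CPM in steady-state RPF and 74.3 to 81.2 CPM in FRC. In bulk RNA, fewer cells of a type and less RNA per cell cannot be told apart.

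The promoters of 3 members are shown, chosen by their fold changes. Tlx1 and Nkx3-2 had the highest fitted fold changes of steady-state RPF over FRC among the members, with only 2 FRC counts behind Nkx3-2. Among the members called lower in depleted than in steady-state RPF, Nkx3-2 and Tcf21 fell furthest. The sequences come from RefSeq's table for build GRCm38.p6, which matched 7 of the 8 members, and Wt1 was the other one. Each runs 5′ to 3′ on the gene's own strand, starting 250 bases before and ending 50 bases after the annotated start. Capitals mark a TGACAG, the core bound by TALE homeobox proteins such as Meis1, or an AAGTG, the core bound by NKX proteins, on either strand, and the motifs do not overlap each other here. The windows are chr19:45150465-45150764 on the plus strand for Tlx1, chr5:41764171-41764470 on the minus strand for Nkx3-2 and chr10:22820094-22820393 on the minus strand for Tcf21.
Tlx1: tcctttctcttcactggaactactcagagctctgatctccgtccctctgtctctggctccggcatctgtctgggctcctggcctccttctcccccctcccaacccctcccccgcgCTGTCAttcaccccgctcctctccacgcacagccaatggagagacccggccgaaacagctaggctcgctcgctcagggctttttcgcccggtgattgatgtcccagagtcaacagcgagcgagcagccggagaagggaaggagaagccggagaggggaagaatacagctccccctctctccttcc
Nkx3-2: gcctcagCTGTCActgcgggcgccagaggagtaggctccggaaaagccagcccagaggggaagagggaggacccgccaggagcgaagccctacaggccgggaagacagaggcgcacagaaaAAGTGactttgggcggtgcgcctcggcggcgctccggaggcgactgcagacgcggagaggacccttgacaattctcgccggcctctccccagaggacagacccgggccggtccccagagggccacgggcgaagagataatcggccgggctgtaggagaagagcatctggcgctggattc
Tcf21: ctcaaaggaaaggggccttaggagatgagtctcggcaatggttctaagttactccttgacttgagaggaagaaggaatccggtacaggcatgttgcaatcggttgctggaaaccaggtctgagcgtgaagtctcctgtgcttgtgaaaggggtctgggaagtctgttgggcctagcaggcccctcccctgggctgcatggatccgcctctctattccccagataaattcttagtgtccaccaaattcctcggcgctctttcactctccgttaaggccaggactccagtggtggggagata
In these windows the Tlx1 promoter held 1 TGACAG on the opposite strand, at -135 to -130 from the start. The Nkx3-2 promoter held a TGACAG on the opposite strand at -243 to -238 and an AAGTG on its own strand at -129 to -125. The Tcf21 window held neither. Of the other members, Nkx2-5 had a TGACAG on the opposite strand at -19 to -14, and Meis1 had an AAGTG on the opposite strand at 42 to 46. TGACAG was thus in 3 of 7 member promoters and in 19.2% of 32851 promoters of the same length, and AAGTG was in 2 of 7 and in 46.4%. Further motifs, TAATTG for homeobox proteins and GCGGGGGCG for the Wt1 and Egr zinc fingers, were in 0 of the 7 windows, and in 8.0% and 2.91% of all promoters. Such a match is only a run of letters, and binding was not measured. Base composition varied among these promoters, with 66.7% G or C and 25 CpG for Nkx3-2, 61.7% and 16 CpG for Tlx1, 53.3% and 8 CpG for Tcf21 and 49.7% and 2 CpG for Nr2f2, against medians of 52.7% and 7 CpG over all promoters.

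The first comparison sets depleted against steady-state RPF. These came from toxin-treated and untreated mice, so effects of the toxin itself and of macrophage loss cannot be told apart. Depleted RPF had less Tcf21, Nkx3-2, Meis1 and Nr2f2 mRNA than steady-state RPF, and Tcf21 and Nkx3-2 fell by more than the others called. Of the 8 members, 4 were called lower and 0 higher, where 9.96% of all tested genes were called lower and 11.1% higher. Every depleted library lay below every steady-state RPF library for 7 of the 8, all except Nkx2-5, and this held for 23% of all tested genes. The median log2 fold change was -0.88 over the members and -0.09 over all tested genes. In a fit of the 6 RPF libraries alone, 7 members were called lower, against 12.9% of the 13778 genes tested there, and only Nkx2-5 was not called. With limma-voom on all 9 libraries the same 7 were called lower, against 12.5% of all tested genes.

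**Figure D1:**
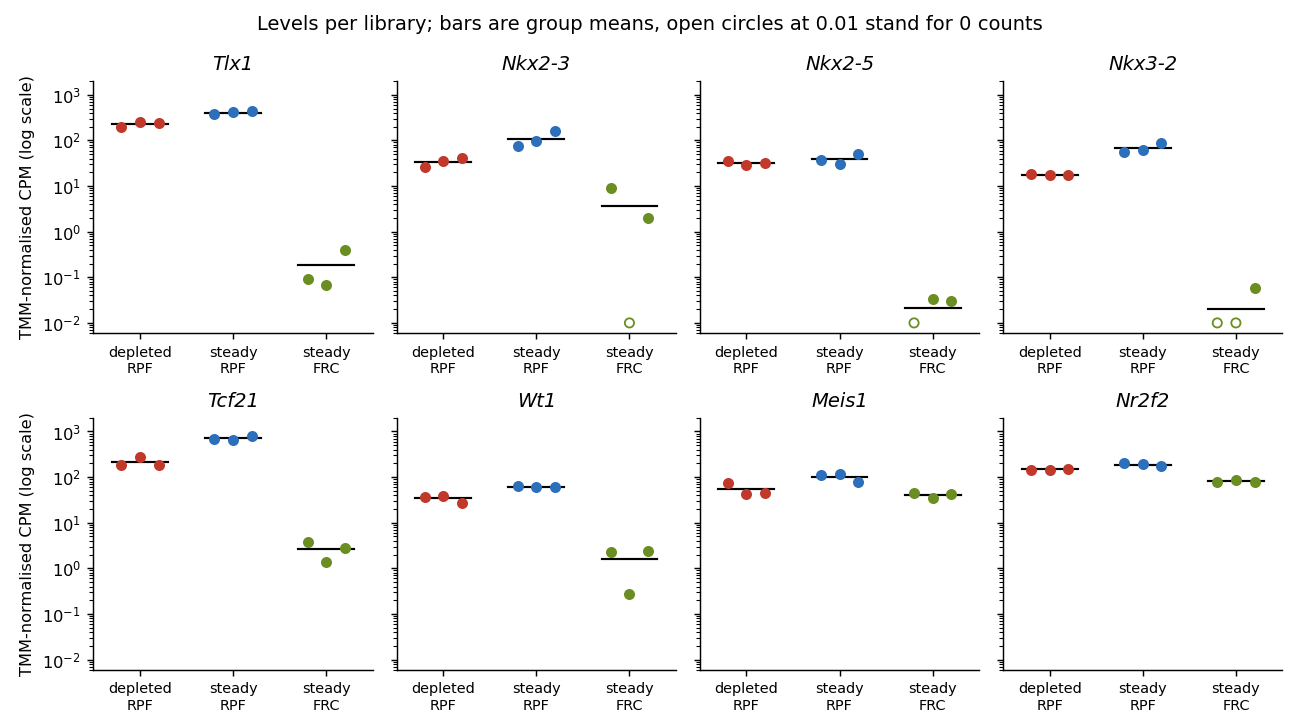
TMM-normalised CPM of each factor on a log axis, 1 point per library and a bar at the mean of 3 libraries, for depleted RPF (red), steady-state RPF (blue) and FRC (green). Open circles at 0.01 stand for libraries with 0 counts. Tlx1, Nkx2-5, Nkx3-2, Tcf21 and Wt1 lie far above FRC in both RPF groups, Meis1 and Nr2f2 are within a few-fold in all 3 groups, and for all genes except Nkx2-5 the depleted points lie below the steady-state RPF points.

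Among the homeobox genes, Nkx3-2 (Bapx1; ENSMUSG00000049691, mm10 chromosome 5, 41761483 to 41764501, minus strand) had 18.7, 17.3 and 17.4 CPM in depleted RPF, against 56.5, 61.1 and 88.0 CPM in steady-state RPF. All 3 depleted libraries lay below all 3 steady-state libraries, and the depleted ones were within 1.08-fold of each other. Nkx3-2 fell 3.85-fold (log2 fold change -1.95, SE 0.36, edgeR adjusted p = 0.0049).

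Tlx1 (Hox11; ENSMUSG00000025215, chromosome 19, 45150680 to 45156943, plus strand) had 198, 251 and 239 CPM in depleted RPF, against 371, 419 and 434 CPM in steady-state RPF. The groups did not overlap, but the test over all 9 libraries did not pass (log2 fold change -0.83, 95% interval -1.45 to -0.21, edgeR adjusted p = 0.0637). Among the alternatives the edgeR, DESeq2 and limma-voom adjusted p ran between 6.62e-06 and 0.194, and it was 0.00314 in the 6 RPF libraries alone, 0.0373 without FRC replicate 2 and 0.00306 without FRC replicate 3. Tlx1 in FRC rested on 3, 2 and 13 counts.

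Nkx2-3 (ENSMUSG00000044220, chromosome 19, 43612325 to 43615892, plus strand) had 25.6, 34.9 and 40.3 CPM in depleted RPF, against 74.4, 96.9 and 157 CPM in steady-state RPF. Replicate 3 of steady-state RPF was the highest and had 2.11 times the level of replicate 1, yet the lowest steady-state library was above the highest depleted one. The difference did not pass the test over all 9 libraries (log2 fold change -1.70, 95% interval -4.04 to 0.63, edgeR adjusted p = 0.299). It passed in the 6 RPF libraries alone (edgeR adjusted p = 0.00583).

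Nkx2-5 (ENSMUSG00000015579, chromosome 17, 26838664 to 26841565, minus strand) had 34.7, 29.1 and 31.2 CPM in depleted RPF, against 37.9, 30.9 and 49.4 CPM in steady-state RPF. The groups overlapped, since replicate 1 of depleted RPF was above replicate 2 of steady-state RPF. The log2 fold change was -0.32 with a 95% interval of -0.98 to 0.35 (edgeR adjusted p = 0.522), and it was called in none of the 18 alternatives run.

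Tcf21 (capsulin, Pod1; ENSMUSG00000045680, chromosome 10, 22817281 to 22820174, minus strand), a basic helix-loop-helix factor of mesenchyme, had 180, 273 and 186 CPM in depleted RPF, against 676, 657 and 813 CPM in steady-state RPF. The lowest steady-state library held over 2-fold the highest depleted one. Tcf21 fell 3.36-fold (log2 fold change -1.75, SE 0.30, edgeR adjusted p = 0.00363). Its place among tested genes by CPM per kb of transcript was at the 98.7th percentile on average in steady-state RPF and at the 92.3rd in depleted RPF.

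Wt1 (ENSMUSG00000016458, chromosome 2, 105126529 to 105173616, plus strand), a zinc finger factor of mesothelium and its descendants, had 36.8, 39.3 and 26.9 CPM in depleted RPF, against 64.9, 61.6 and 59.9 CPM in steady-state RPF. The steady-state libraries were within 1.08-fold of each other and all lay above the depleted ones. The difference did not pass the test over all 9 libraries (log2 fold change -0.86, 95% interval -2.08 to 0.37, edgeR adjusted p = 0.324). It passed in the 6 RPF libraries alone (edgeR adjusted p = 0.0129), with limma-voom (adjusted p = 0.0131) and without FRC replicate 2 (edgeR adjusted p = 0.0156). Both RPF groups were sorted for tdTomato under Wt1CreERT2, and all mice carried that allele, whose part in the Wt1 counts was not tested. Mesothelial markers, summed over 12 genes other than Wt1, were at 3.08 to 7.52 CPM in depleted RPF and 20.3 to 32.7 CPM in steady-state RPF. In FRC they were at 126 to 157 CPM, most of it Rspo1, at 115 CPM on average. Gpm6a and Rspo1 made up most of the sum in steady-state RPF, at means of 14.2 and 8.26 CPM. In depleted RPF these 2 were at 3.31 and 0.742 CPM. Of 8 tested between the RPF groups, 1, Rspo1, was called lower, where 9.96% of all tested genes were. Gpm6a was not called (edgeR adjusted p = 0.299). Msln, a defining mesothelial marker, was at 0 in depleted RPF and in FRC and at 6.62, 0 and 0 CPM in steady-state RPF, where all its counts were in replicate 1. Krt7, Krt18 and Krt19 were at 0 in depleted RPF and at means of only 0.304, 0.277 and 0.620 CPM in steady-state RPF. None of them was called between the RPF groups. Krt8 had 1 count in depleted RPF and 0 in steady-state RPF. Upk3b was at means of 0.728 CPM in depleted RPF and 0.944 CPM in steady-state RPF. The part of mesothelial cells in the Wt1 levels was not tested.

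Meis1 (ENSMUSG00000020160, chromosome 11, 18879817 to 19018985, minus strand) had 73.4, 41.7 and 45.9 CPM in depleted RPF, against 108, 116 and 78.3 CPM in steady-state RPF. Replicate 1 of depleted RPF and replicate 3 of steady-state RPF came close, without overlap. Meis1 fell 1.88-fold (log2 fold change -0.91, SE 0.25, edgeR adjusted p = 0.0326), a call that ended without depleted replicate 2 (0.110) or 3 (0.110) or steady-state RPF replicate 1 (0.0959) or 2 (0.115), or with a term for Y-linked reads (0.0713). Meis1 is also made by megakaryocytes, whose 9 markers summed to 38.4 to 47.8 CPM in depleted RPF and 21.0 to 28.3 CPM in steady-state RPF. Of 5 tested, 1, Pf4, was called higher, where 11.1% of all tested genes were. Pf4 made up most of the sum in depleted RPF, at 38.9 CPM on average in depleted RPF and 12.8 CPM in steady-state RPF. The other 8 markers, summed without Pf4 after these values were seen, came to 8.01, 2.02 and 7.21 CPM in depleted RPF, against 8.83, 13.3 and 14.6 CPM in steady-state RPF. Ppbp was at 1.01 CPM in depleted RPF and 5.16 CPM in steady-state RPF on average. The part of megakaryocytes in the Meis1 level was not tested.

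Nr2f2 (ENSMUSG00000030551, chromosome 7, 70351944 to 70366735, minus strand) had 145, 145 and 151 CPM in depleted RPF, against 200, 190 and 176 CPM in steady-state RPF. This was the smallest fall of the 4 called, and the groups did not overlap. Nr2f2 fell 1.28-fold (log2 fold change -0.36, SE 0.11, edgeR adjusted p = 0.0408), and the call ended in 9 of the 18 alternatives. These were the fits without any 1 of the 6 RPF libraries (depleted 1 to 3 at 0.115, 0.128 and 0.0921, steady-state 1 to 3 at 0.140, 0.116 and 0.0603), without FRC replicate 1 (0.0543), with no filter on low counts (0.110) and with a term for Y-linked reads (0.0864). Venous endothelium makes Nr2f2, and 12 endothelial markers summed to 65.0 to 84.7 CPM in depleted RPF and 96.0 to 209 CPM in steady-state RPF. Of 11 tested, 1, Tek, was called lower, where 9.96% of all tested genes were. Without Tek, a choice made after these values were seen, the other 11 summed to 69.6, 40.9 and 53.9 CPM in depleted RPF, against 58.3, 101 and 64.6 CPM in steady-state RPF, and overlapped. Of these, Stab2 was at means of 2.305 CPM in depleted and 17.5 CPM in steady-state RPF, without overlap (edgeR adjusted p = 0.057). Egfl7 was at means of 4.49 and 7.89 CPM, also without overlap (edgeR adjusted p = 0.645). Kdr, Tie1, Vwf and Emcn had lower means in depleted RPF too. Flt1 had the higher level in depleted RPF, at 5.18 CPM on average, against 0.786 CPM in steady-state RPF, and was not called (edgeR adjusted p = 0.353). Esam and Prox1 also had higher means in depleted RPF, and neither was called. Cdh5, a defining endothelial marker, was at 0.910 CPM on average in depleted RPF and 1.98 CPM in steady-state RPF. The part of endothelial cells in the Nr2f2 level was not tested.

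Nkx3-2 and Tcf21 were called lower in all 18 alternatives, with adjusted p values no higher than 0.0364 and 0.0193. The member count itself moved with the libraries used. It was 2 without depleted RPF replicate 2 or 3 or without steady-state RPF replicate 1 or 2, and also 2 with a term for Y-linked reads. Since none of the depleted pools lacked Y-linked reads, the depletion cannot be compared among such pools. Red pulp macrophage markers fell along with the members, with 9 of 12 tested called lower and 0 higher, beside 9.96% and 11.1% of all tested genes. C1qa, Cd5l and Adgre1 were at 0 in depleted RPF, against means of 13.0, 12.9 and 9.16 CPM in steady-state RPF, and the part of carried-over macrophage RNA in the member levels was not tested.

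Mural cell markers also differed between the RPF groups. Summed over 8 genes they came to 1881 to 2282 CPM in depleted RPF and 1264 to 1490 CPM in steady-state RPF, without overlap. In FRC they came to 2825 to 3699 CPM. Des made up most of the sum in both RPF groups, at means of 1657 CPM in depleted and 771 CPM in steady-state RPF. The higher sum in depleted RPF rests on Des, and the sum without it was not taken. Of the 8, 3 were called higher and 2 lower in depleted RPF, where 11.1% and 9.96% of all tested genes were. Mcam, an adhesion molecule of the cell surface, was at 209 CPM on average in depleted RPF and 15.6 CPM in steady-state RPF (edgeR adjusted p = 0.000151). Des and Notch3 were the other 2 higher. Kcnj8, a potassium channel subunit, was at 48.4 CPM on average in depleted RPF and 435 CPM in steady-state RPF (edgeR adjusted p = 0.000269), and Abcc9, which encodes its regulatory partner, was lower too (0.0273). Rgs5, a defining pericyte marker, was at 0.111 CPM in depleted RPF, 0.138 CPM in steady-state RPF and 323 CPM in FRC on average. The part of mural cells in the member levels was not tested.

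**Figure D2:**
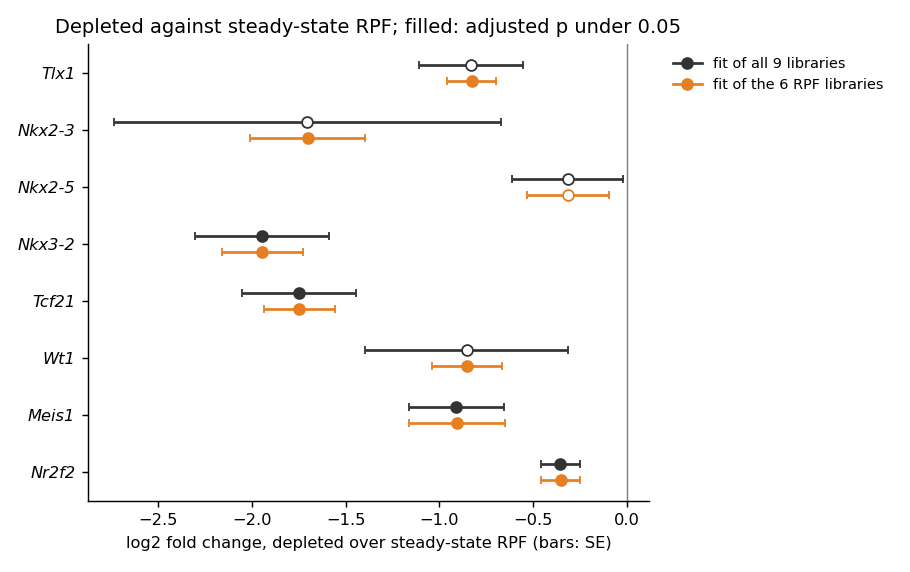
Log2 fold change of depleted over steady-state RPF for each factor, with bars of 1 SE, from the fit of all 9 libraries (black) and from the 6 RPF libraries alone (orange). Filled points have an adjusted p under 0.05. The 2 fits give nearly the same fold changes, and the SE is smaller in the 6-library fit for all except Meis1 and Nr2f2, where it is nearly the same.

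**Figure D3:**
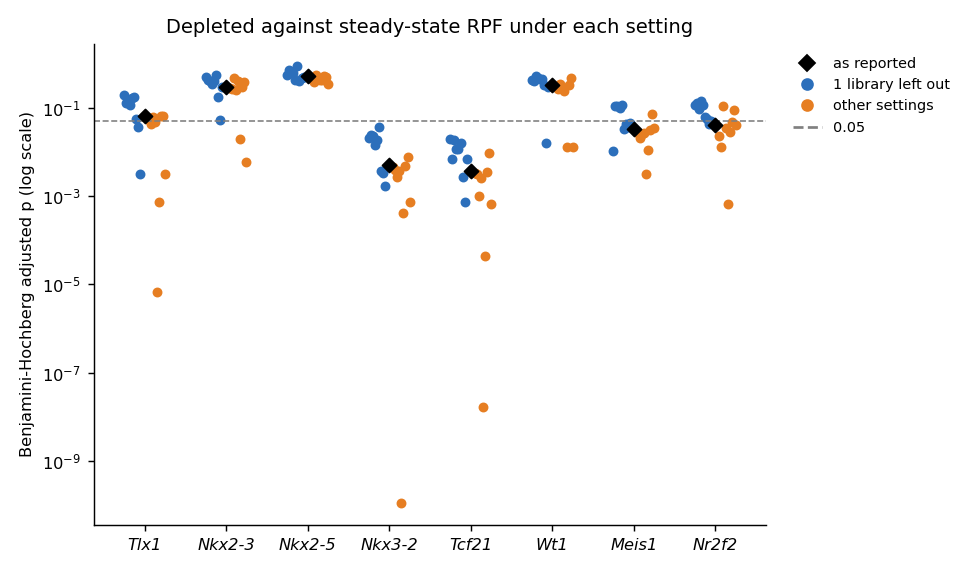
Adjusted p of depleted against steady-state RPF for each factor on a log axis, as reported (diamonds), with each of the 9 libraries left out in turn (blue) and under the other settings (orange). Nkx3-2 and Tcf21 stay under 0.05 throughout, Nkx2-5 stays above it throughout, and the other 5 factors have points on both sides.

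The members did not all differ by the same factor between the RPF groups, so the ratio of their counts within a library also differed. The ratio of Tlx1 to Tcf21 counts was 1.102, 0.918 and 1.29 in depleted RPF, against 0.548, 0.638 and 0.534 in steady-state RPF. The ratio of Nkx2-5 to Nkx3-2 counts was 1.86, 1.68 and 1.80 in depleted RPF, against 0.671, 0.506 and 0.561 in steady-state RPF, with no overlap in either case. Of the 28 pairs of members, 15 (53.6%) had ratios that did not overlap between the RPF groups, close to the 45.9% of all pairs of tested genes with a count in every RPF library, and these pairs are not independent since each gene is in 7 of them. Such ratios do not depend on how libraries are scaled. The ratio of Nkx3-2 to Tcf21, both called lower, was 0.104, 0.0635 and 0.0935 in depleted RPF, against 0.0835, 0.0930 and 0.108 in steady-state RPF, and overlapped.

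Levels of different genes can be compared only per length, so CPM was divided by the deposited median transcript length in kilobases. On that scale depleted RPF had most Tlx1, at 160 ± 19.1 CPM per kb, and Tcf21, at 139 ± 34.1 (SD, n = 3 each), whose ranges of 138 to 175 and 118 to 179 overlapped. Next in depleted RPF came Nr2f2 at 76.9, Wt1 at 22.1, Nkx2-5 at 20.7, Meis1 at 17.4, Nkx2-3 at 15.9 and Nkx3-2 at 10.4 CPM per kb on average. In steady-state RPF the order was Tcf21 at 468 ± 55.8, Tlx1 at 284 ± 23.0 and Nr2f2 at 98.4 ± 6.34 CPM per kb (SD, n = 3 each), with no overlap among these. The remaining 5 had means in steady-state RPF of 51.8 for Nkx2-3, 40.0 for Wt1, 39.9 for Nkx3-2, 32.6 for Meis1 and 25.8 for Nkx2-5, and each neighbour overlapped the next. In FRC the order was Nr2f2 at 41.9 and Meis1 at 13.1 CPM per kb, with no overlap between them, and the other 6 were under 2 CPM per kb on average.

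**Figure D4:**
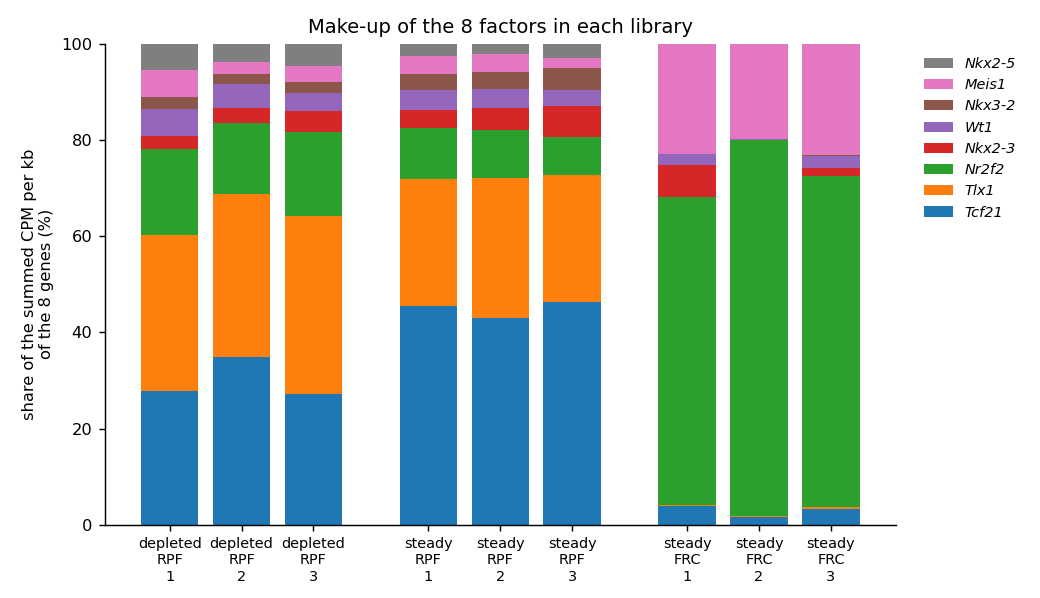
Share of each factor in the summed CPM per kb of the 8 factors, in percent, 1 stacked bar per library. Tcf21 takes 27.1% to 34.8% in depleted RPF and 43.0% to 46.4% in steady-state RPF, and Nr2f2 takes 64.3% to 78.3% in FRC.

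Of the summed per-kb level, Tcf21 took 27.7%, 34.8% and 27.1% in depleted RPF, against 45.4%, 43.0% and 46.4% in steady-state RPF. Tlx1 took 32.5%, 34.0% and 37.1% in depleted RPF, against 26.5%, 29.2% and 26.3% in steady-state RPF. Neither set of shares overlapped between the groups, and Tlx1, which had the lower level in depleted RPF, had the larger share there. Summed CPM of the 8 genes was 713, 831 and 737 in depleted RPF, 1589, 1632 and 1855 in steady-state RPF and 140, 121 and 126 in FRC.

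The second comparison sets steady-state RPF against FRC, which differ in organ, in the tdTomato gate and in cell type, and these cannot be told apart. All 7 members other than Wt1 were called higher in steady-state RPF, where 11.5% of all tested genes were. Every steady-state RPF library was above every FRC library for each of them, as for 21.5% of all tested genes. Wt1 is behind the tdTomato gate, so its values are given as a description. They were 64.9, 61.6 and 59.9 CPM in steady-state RPF, against 2.25, 0.273 and 2.39 CPM in FRC.

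Nkx2-5 and Nkx3-2 were close to undetected in FRC, with 0, 1 and 1 counts and with 0, 0 and 2 counts. In steady-state RPF they had 1781, 1565 and 1492 counts and 2653, 3093 and 2661 counts. The ratio of steady-state RPF to FRC, with its 95% counting interval, was 1812 (501 to 14967) for Nkx2-5 and 3149 (871 to 26005) for Nkx3-2 (edgeR adjusted p = 1.92e-06 and 3.55e-06). These intervals cover counting error only.

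Tlx1 had 371, 419 and 434 CPM in steady-state RPF, against 0.0911, 0.0682 and 0.388 CPM in FRC. The log2 fold change was 11.07 (SE 0.45, edgeR adjusted p = 9.78e-07). Among the 15103 tested genes, Tlx1 ranked 44th by log2 fold change from the highest. The fitted log2 fold change of Nkx3-2 ran from 10.94 to 14.36 under the alternatives, with 2 counts in FRC behind it, both in replicate 3, so no rank is given for it.

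Tcf21 had 676, 657 and 813 CPM in steady-state RPF, against 3.82, 1.40 and 2.86 CPM in FRC, with 126, 41 and 96 counts behind the FRC values. The groups were far apart, at a log2 fold change of 8.04 (SE 0.41, edgeR adjusted p = 2.6e-06). Tcf21 is also made by mesenchyme of other organs in mice, and the source of its low counts in FRC was not tested.

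Nkx2-3 had 74.4, 96.9 and 157 CPM in steady-state RPF, against 9.02, 0 and 2.00 CPM in FRC. The FRC libraries differed widely, with 297 counts in replicate 1, 0 in replicate 2 and 67 in replicate 3. The log2 fold change was 4.89 (SE 1.19, edgeR adjusted p = 0.0159), and the call ended without FRC replicate 3 (0.0534) and with no filter on low counts (0.0640). Madcam1, an adhesion molecule that in mice depends on Nkx2-3, was at 7.71, 0.102 and 0.626 CPM in the same FRC libraries, with replicate 1 highest for both genes. Between the RPF groups the 2 genes had opposite orders. Madcam1 was at means of 4.20 CPM in depleted and 1.05 CPM in steady-state RPF, and Nkx2-3 at 33.6 and 109 CPM. Within steady-state RPF, Madcam1 was at 2.53, 0 and 0.628 CPM, highest in replicate 1, where Nkx2-3 was lowest.

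Meis1 had 108, 116 and 78.3 CPM in steady-state RPF, against 45.6, 34.4 and 41.6 CPM in FRC. Nr2f2 had 200, 190 and 176 CPM in steady-state RPF, against 79.2, 84.8 and 76.6 CPM in FRC. Neither gene overlapped between the groups, and both were higher in steady-state RPF, Meis1 2.49-fold (edgeR adjusted p = 0.00514) and Nr2f2 2.35-fold (edgeR adjusted p = 4.05e-05). These were the only 2 members at more than 10 CPM on average in FRC.

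The third comparison sets depleted RPF against FRC and shares libraries with both others. Of the 7 members other than Wt1, 5 were called higher in depleted RPF, where 16.9% of all tested genes were. Every depleted library was above every FRC library for all of them except Meis1, as for 24.5% of all tested genes. Depleted RPF still held 198, 251 and 239 CPM of Tlx1, against 0.0911, 0.0682 and 0.388 CPM in FRC (log2 fold change 10.24, SE 0.44, edgeR adjusted p = 1.12e-06). For Tcf21 the log2 fold change was 6.30 (SE 0.38, edgeR adjusted p = 4.48e-06). The count ratio of depleted RPF to FRC was 1511 (95% counting interval 418 to 12479) for Nkx2-5 and 850 (235 to 7020) for Nkx3-2. Nr2f2 was 1.84-fold higher (edgeR adjusted p = 0.000248).

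Meis1 and Nkx2-3 did not pass in depleted RPF against FRC. Meis1 had 73.4, 41.7 and 45.9 CPM in depleted RPF, against 45.6, 34.4 and 41.6 CPM in FRC, and the groups overlapped. Its log2 fold change was 0.41 with a 95% interval of -0.16 to 0.98 (edgeR adjusted p = 0.244). Nkx2-3 had 25.6, 34.9 and 40.3 CPM in depleted RPF, against 9.02, 0 and 2.00 CPM in FRC, without overlap (log2 fold change 3.19, 95% interval 0.68 to 5.69, edgeR adjusted p = 0.051). It was called without FRC replicate 1, at a log2 fold change of 5.04 (edgeR adjusted p = 0.0111), and without FRC replicate 2, at 2.61 (0.016), and in 7 of the 18 alternatives in all. The depleted RPF levels of Wt1, as a description, were 36.8, 39.3 and 26.9 CPM.

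Several members share bases with other genes of the table, and the sources used here do not say whether counting used strand, so reads at shared bases cannot be told apart. Gm10824, an antisense gene over the whole of Tcf21, had 63, 81 and 115 counts in depleted RPF, 569, 444 and 211 in steady-state RPF and 1, 0 and 0 in FRC. Tlx1os, which overlaps Tlx1 by 2887 bases, had 0, 1 and 5 counts in depleted RPF, 22, 66 and 57 in steady-state RPF and 0 in every FRC library. These counts are few beside the 6271 to 33266 of Tcf21 and the 6910 to 21233 of Tlx1 in the RPF libraries. They do not show how many reads at shared bases went uncounted. B130024G19Rik, which overlaps Nr2f2 by 1826 bases, had 251, 112 and 36 counts in depleted RPF, against 300, 602 and 340 in steady-state RPF. Gm16141, which overlaps Meis1 by 1338 bases, had 0, 3 and 0 counts in depleted RPF, against 5, 8 and 17 in steady-state RPF. The part of overlaps in the member levels was not tested. Wt1os starts 18 bases away from Wt1 on the other strand and overlaps none of it. It had 5.07 ± 2.03 CPM in depleted RPF, 11.8 ± 3.28 CPM in steady-state RPF and 0 in FRC (SD, n = 3 each), and its difference between the RPF groups did not pass (edgeR adjusted p = 0.192).

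The genes that work with these factors were read from lists. TALE homeobox proteins, the family to which Meis1 belongs, bind DNA as partners of other homeobox proteins. Of 10 others tested, 1 was higher and 2 were lower in depleted than in steady-state RPF, where 11.1% and 9.96% of all tested genes were. The list median log2 fold change was -0.26, beside -0.09 over all genes. Pknox2, a TALE protein of the Pknox group, had 19.9, 17.97 and 18.4 CPM in depleted RPF, against 51.6, 44.2 and 46.7 CPM in steady-state RPF (edgeR adjusted p = 0.000513). Tgif1, a repressor in the TGF-beta pathway, went the other way, with 23.0, 21.5 and 24.1 CPM in depleted RPF, against 6.94, 6.42 and 6.52 CPM in steady-state RPF (edgeR adjusted p = 0.000247). In neither of these did the groups overlap. Against FRC, steady-state RPF had 0 of the 10 higher and 2 lower, Pknox2 and Tgif1, where 11.5% of all tested genes were higher and 14.4% lower. Depleted RPF against FRC had 0 higher and 4 lower, Meis2, Pknox2 and Tgif1 among them, where 16.9% of all tested genes were higher and 18.8% lower.

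Of 9 factors of visceral mesoderm listed, 8 were in the table and 5 were tested. Foxf1, a forkhead factor of gut and lung mesenchyme, and Gata6, a zinc finger factor, were on the FRC side. Foxf1 had 4.27 ± 0.889 CPM in depleted RPF, 0.968 ± 0.850 CPM in steady-state RPF and 89.7 ± 15.3 CPM in FRC (SD, n = 3 each). It was higher in depleted than in steady-state RPF (edgeR adjusted p = 0.0402) and lower in steady-state RPF than in FRC (0.000242). Gata6 was at 0.563 ± 0.545 CPM in depleted RPF, 0.661 ± 1.00 CPM in steady-state RPF and 132 ± 21.1 CPM in FRC, and was called lower in each RPF group against FRC (edgeR adjusted p = 0.00183 for depleted and 0.00266 for steady-state RPF). Hand2, a helix-loop-helix factor, was at 1.015 ± 0.437 CPM in depleted RPF, 2.09 ± 0.991 CPM in steady-state RPF and 0.0398 ± 0.0689 CPM in FRC, and was called higher in both RPF groups against FRC (edgeR adjusted p = 0.049 and 0.0341). Foxf2 was tested and not called in any of the 3 comparisons.

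Of 13 paralogs of the members listed, 5 were in the table and 4 were tested, and the other 8 were not analysed here. Tcf23, a relative of Tcf21, had 6.38, 0.648 and 6.27 CPM in depleted RPF, 8.73, 10.4 and 3.51 CPM in steady-state RPF and 0 in every FRC library. It was at least 144-fold higher in depleted and at least 260-fold higher in steady-state RPF than a floor of 3 counts over the FRC group. Msc, another relative of Tcf21, had 15.5, 3.43 and 9.66 CPM in depleted RPF, against 33.2, 49.6 and 28.8 CPM in steady-state RPF (edgeR adjusted p = 0.0278), without overlap. Nr2f1 (COUP-TFI), the closest relative of Nr2f2, was at 0.296 ± 0.193 CPM in depleted RPF, 1.39 ± 0.739 CPM in steady-state RPF and 24.5 ± 7.61 CPM in FRC, so that the order of Nr2f1 was opposite to that of Nr2f2 between RPF and FRC. Nr2f1 was called lower in steady-state RPF than in FRC (edgeR adjusted p = 0.00146) and lower in depleted than in steady-state RPF (0.031). Nr2f6 was at 57.1 ± 2.71 CPM in depleted RPF, 43.5 ± 2.25 CPM in steady-state RPF and 28.9 ± 4.10 CPM in FRC, and was called higher in both RPF groups against FRC (edgeR adjusted p = 0.00173 and 0.0285).

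Of 18 genes reported as regulated by Wt1 in other tissues, 16 were in the table and 13 were tested. In depleted against steady-state RPF 2 were higher, 1 was lower and 10 were not called, a share near that of all tested genes, of which 11.1% were higher and 9.96% lower. Cited2, a transcriptional coregulator, had 112, 113 and 162 CPM in depleted RPF, against 367, 279 and 349 CPM in steady-state RPF (edgeR adjusted p = 0.000653). Spry1, an inhibitor of receptor tyrosine kinase signalling, had 203, 247 and 178 CPM in depleted RPF, against 99.4, 97.8 and 95.03 CPM in steady-state RPF (edgeR adjusted p = 0.00221). Neither overlapped between the groups, and they moved in opposite directions.

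Aldh1a2, an enzyme of retinoic acid synthesis, had 24.0, 23.7 and 30.2 CPM in depleted RPF, against 1 count in all in steady-state RPF. The ratio was 3363 with a 95% counting interval of 603 to 132865 (edgeR adjusted p = 5.45e-05). FRC were at 24.7, 8.26 and 18.4 CPM, so depleted RPF and FRC overlapped for this gene (log2 fold change 0.60, 95% interval -0.46 to 1.66, edgeR adjusted p = 0.356).

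In steady-state RPF against FRC, 4 of these 13 genes were higher and 4 were lower, where 11.5% of all tested genes were higher and 14.4% lower. Nes, an intermediate filament, was at 66.6 ± 9.13 CPM in steady-state RPF and 0.488 ± 0.708 CPM in FRC (edgeR adjusted p = 0.000219). In depleted RPF Nes was at 241 ± 34.0 CPM, above steady-state RPF without overlap, a difference that was not called (edgeR adjusted p = 0.0551). Nr5a1, a nuclear receptor of the gonad and adrenal, had 2.26, 2.70 and 0 CPM in steady-state RPF and 0 in every FRC library. The groups thus overlapped at 0. Pooled, steady-state RPF was at least 60.7-fold above the floor of 3 counts over the FRC group (edgeR adjusted p = 0.0409). Snai1 and Cited2 were the other 2 higher, and Ntrk2, Aldh1a2, Igf1r and Pdgfra were lower. Ntrk2, a neurotrophin receptor, was at 12.5 ± 8.14 CPM in steady-state RPF and 489 ± 97.9 CPM in FRC (edgeR adjusted p = 0.00085).

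Of 4 genes reported downstream of Tlx1, Nkx2-3 or Nr2f2, Angpt1 was called in all 3 comparisons. Angpt1, a ligand of the endothelial receptor Tek, had 27.8, 34.9 and 31.8 CPM in depleted RPF, 85.8, 96.4 and 57.8 CPM in steady-state RPF and 15.97, 9.83 and 7.78 CPM in FRC. No 2 groups overlapped, with depleted RPF below steady-state RPF (edgeR adjusted p = 0.0128) and steady-state RPF above FRC (0.000214). Aldh1a1, an enzyme of retinoic acid synthesis that Tlx1 holds down in the mouse spleen primordium, was at 6.92 ± 3.37 CPM in depleted RPF, 8.82 ± 5.14 CPM in steady-state RPF and 114 ± 27.4 CPM in FRC. It was called lower in both RPF groups against FRC (edgeR adjusted p = 0.000725 and 0.00149). Cyp26b1, which degrades retinoic acid, was called lower in depleted RPF than in FRC (edgeR adjusted p = 0.00912). Madcam1 was not called in any of the 3.

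The genes most like each member were taken as those with the smallest root mean square difference of centred log2 CPM over the 9 libraries, among 13109 protein-coding genes. Nearest to Tlx1 were Scube1 (0.24), Kcnd3 (0.32) and Clca3a1 (0.32). Clca3a1 was at means of 757 CPM in depleted RPF, 1298 CPM in steady-state RPF and 0.689 CPM in FRC. Nearest to the others were Lrrn3 for Nkx3-2 (0.48), Kif4 for Nkx2-5 (0.41), Adap2 for Nkx2-3 (0.69), D430019H16Rik for Tcf21 (0.59), Stc2 for Wt1 (0.38), Narf for Meis1 (0.20) and Pef1 for Nr2f2 (0.12). Small differences for Meis1 and Nr2f2 go with their small range over the 9 libraries. The members were not each other's nearest genes. Nkx3-2 was the nearest other member to Tlx1 (0.91, in 12th place among all genes), to Nkx2-5 (0.73, in 16th place) and to Tcf21 (0.94, in 38th place), and Meis1 and Nr2f2 were nearest to each other among the members (0.37).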

How the data were processed

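Polyadenylated RNA of 9 libraries was used as raw read counts per Ensembl gene, as the authors deposited them. STAR 2.5.3a, HTSeq 0.6.1p1, cutadapt 1.10, Bowtie2 2.2.8 and build mm10 are named in the submitters' processing notes. Annotation release and strand setting were not given in the sources used here. Levels per kb used the median transcript length in bases that the authors deposited for each gene. Its 24 other per-sample columns, which hold normalized values and 2 further libraries, and the authors' own comparisons were not used here.

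Counts of 15103 genes that passed filterByExpr were fitted in R 4.3.3 with edgeR 4.0.16 (TMM scaling, a term per group, robust quasi-likelihood, 6 residual degrees of freedom), with Benjamini-Hochberg adjustment over all tested genes. SE values were derived from the F statistic. The test treats the libraries as independent, although steady-state RPF and FRC share mice. Alternatives were DESeq2 1.42.0, limma-voom (limma 3.58.1), upper quartile or RLE scaling, testing without a filter or with at least 1 CPM throughout a group, no robust prior, a term for Y-linked reads, the compared groups alone and each library left out. The genes named were all 8 members, the called genes of fixed lists, genes overlapping a member, and the 3 genes of most similar pattern, of which the first is given for most members. Madcam1, named for its FRC values, was chosen after these were seen, as were a few uncalled list genes. Some list genes are not reported here by name. Members and lists were chosen with earlier results of these data known. No library pair agreed within sampling noise. Strands come from GENCODE M21, and overlapping genes were found from the gene coordinates that the authors deposited. Python 3.11.15 with matplotlib 3.10.9 drew the figures.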

Additional observations from a re-analysis of the deposited data

How the results depend on the processing

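In depleted against steady-state RPF, 4 of the 8 members were called as reported, 7 with limma-voom, 7 with the compared groups alone and 2 with a term for Y-linked reads, and between 2 and 6 when 1 library was left out, the 6 without FRC replicate 2. The cause of these shifts was not tested. The other settings gave 3 to 5. In steady-state RPF against FRC 7 to 8 members were called under every setting. In depleted RPF against FRC it was 6 to 7, and in both Nkx2-3 was the one that changed sides. Both ranges include Wt1, which is behind the tdTomato gate and was called in all 18 alternatives of each comparison. Its calls against FRC therefore say nothing about robustness. Of 432 member fold changes under the alternatives, 397 kept their direction and side of the threshold, 16 lost the call, 19 gained it and 0 reversed. Those of Wt1 against FRC, which is behind the gate, are among the 397. Upper quartile scaling moved the median log2 fold change of all genes in steady-state RPF against FRC to 0.14, beside -0.02 as reported. The numbers of genes called over the whole table were 3176, 3908 and 5400 in the 3 comparisons and stayed within 1.5 times under the alternatives. Without length scaling, 8 of 24 ranks of a member within a group moved. No paired analysis was possible because the replicate numbers follow accession order and the sources used here tie no libraries to shared mice. Replicate 1 of steady-state RPF and replicate 1 of FRC both nearly lacked Y-linked reads, and the fit with a Y-linked term sets these 2 apart from the other 7, while the other 4 untreated libraries were not matched. With 3 libraries per group, Tlx1, Nkx2-5 and Nkx3-2 in FRC rest on 18 counts or fewer over the group.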
